A study of Mus musculus with 4 samples.

Results

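The 10 genes described here regulate apoptosis and necroptosis and were chosen by name: the survival genes Mcl1 and Bcl2l1, the effectors Bax and Bak1, the BH3-only genes Bcl2l11 and Pmaip1, the caspase-8 checkpoint genes Cflar and Casp8, and the necroptosis genes Ripk3 and Mlkl. They are 10 of the 24235 genes listed for 4 mRNA libraries of mouse macrophages. The macrophages were grown with M-CSF, the growth factor of the lineage, and the C57BL/6 mice that gave the bone marrow were 7 weeks old. The groups were cells labelled Sema6D-/- with LPS, cells labelled Sema6D-/- without LPS, WT cells with LPS and WT cells without LPS, with 1 library each. LPS, a bacterial cell wall component that macrophages sense through Toll-like receptor 4, was given at 100 ng/ml for 4 h. The treatment text of all 4 samples mentions LPS, so the titles alone mark the unstimulated libraries. The labels give neither the deleted part of Sema6d, which encodes a membrane-bound semaphorin, nor the number of mice behind a library. With 1 library per group no difference has a replicate check, so no test was run and every comparison describes these 4 libraries only.

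Apoptosis runs through the mitochondrial outer membrane, which the effectors BAX and BAK open. Survival proteins of the BCL2 family hold the effectors in check, and BH3-only proteins bind the survival proteins and release that hold. Necroptosis is a separate, lytic death in which the kinase RIPK3 phosphorylates MLKL and MLKL ruptures the plasma membrane. Caspase-8 paired with FLIP, the product of Cflar, cuts the kinases of that pathway, and macrophages that meet LPS while caspase-8 is blocked are a well known setting of necroptosis.

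Levels are in FPKM, a count of fragments divided by transcript length and sequencing depth, summed over the RefSeq transcripts of a gene. A fold is the plain ratio of 2 FPKM values, given with its 95% exact (Clopper-Pearson) counting interval, which covers counting error only and says nothing of the spread between cultures or mice. Genes were counted as at least 2-fold apart on log2((FPKM + 1)/(FPKM + 1)), among those with 1 FPKM or more in either library. Each library enters 2 of the 4 LPS and genotype comparisons, so these are not independent of each other.

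Facts of the libraries bear on every comparison. The summed FPKM was 628278 with LPS and 371243 without LPS in the libraries labelled Sema6D-/-, and 534692 and 370066 in WT. Rescaling the libraries to a common total therefore shifts log2 LPS ratios by -0.76 in the libraries labelled Sema6D-/- and -0.53 in WT, and the genotype ratios with LPS by -0.23. Which scaling is nearer to the RNA content of the cells was not tested, and directions that turn under the common total are given beside each gene. Between 9682 and 10057 genes reached 1 FPKM in a library, at estimated depths of 17.5 to 23.7 M fragments. Sema6d measured 0.592 FPKM with LPS and 0.563 FPKM without LPS in the libraries labelled Sema6D-/-, against 0.219 and 0.304 FPKM in the WT libraries, so the targeted gene was not lower where the label names its deletion. The genotype labels also moved with sex-linked RNAs: Xist, the X-inactivation RNA, was at 0.0306 and 0.0333 FPKM in the libraries labelled Sema6D-/-, against 21.4 and 22.3 FPKM in WT, and the Y-linked gene Ddx3y was at 16.6 and 13.2 FPKM in those labelled Sema6D-/-, against 0 and 0.00729 FPKM in WT. Genotype and sex of the mice can therefore not be told apart in any genotype comparison. All 8 macrophage markers were measured, at 11.7 FPKM or more, but they were not even across the genotype labels. With LPS the log2 genotype ratio was 1.97 for Mertk, 1.05 for Cd14 and -1.02 for Itgam, and without LPS it was 0.95, 1.13 and -0.84 in the same order. The part of these differences in the results was not tested. Of the other lists, 0 of 7 lymphocyte and 0 of 4 stromal markers reached 1 FPKM. Of 4 dendritic cell markers only Xcr1 did, at up to 2.52 FPKM, and the 4 cell cycle markers summed to 73.6 and 61.0 FPKM in the libraries labelled Sema6D-/- and 61.5 and 59.2 FPKM in WT. The summed level of 8 neutrophil and progenitor markers was 359.8 and 234 FPKM in the libraries labelled Sema6D-/-, against 1272 and 828 FPKM in WT. Of these 8, Ly6g stayed under 1 FPKM in all 4 libraries, and 7 with LPS and 8 without LPS were lower in the library labelled Sema6D-/-. In bulk RNA, fewer cells of a type and less RNA per cell cannot be told apart, and the part of these markers in the genotype differences was not tested.

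All 10 genes were at 1 FPKM or more in every library. Of the 10, 3 were at least 2-fold higher after LPS in the libraries labelled Sema6D-/-, and 3 in the WT libraries; the 3 were Cflar, Mlkl and Casp8 in both. In the background, 14% of 10398 measured genes were at least 2-fold higher after LPS in the libraries labelled Sema6D-/- and 10.7% of 10375 in WT. None of the 10 was at least 2-fold lower with LPS, against 8.81% and 4.85% of all measured genes. The median log2 ratio of the 10 genes was 0.44 in the libraries labelled Sema6D-/- and 0.33 in WT, beside 0.01 and -0.00106 over all measured genes. Between genotypes 1 gene was at least 2-fold lower in the library labelled Sema6D-/- in each state, Bcl2l1 with LPS and Pmaip1 without LPS, and none was at least 2-fold higher. Over all measured genes, 3.18% were at least 2-fold lower with LPS and 2.19% without LPS, and 3.09% and 2.51% were at least 2-fold higher. The median log2 genotype ratio of the 10 genes was 0.19 with LPS and 0.13 without LPS, beside 0.04 over all measured genes in either state. Counts of this size over 10 genes are a description and are not set apart from those shares. With the libraries rescaled to a common total, 2 of the 10 were at least 2-fold higher and 2 at least 2-fold lower with LPS in the libraries labelled Sema6D-/-, and 2 and 1 in WT. The higher genes were then Cflar and Mlkl in both genotypes, and the lower ones Bcl2l1 in both and Bcl2l11 in the libraries labelled Sema6D-/-. Over all measured genes the split of higher and lower genes was 1453 and 916 as deposited and 739 and 2963 under the common total in the libraries labelled Sema6D-/-, and 1114 and 503 as deposited and 713 and 1468 in WT.

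**Figure D1:**
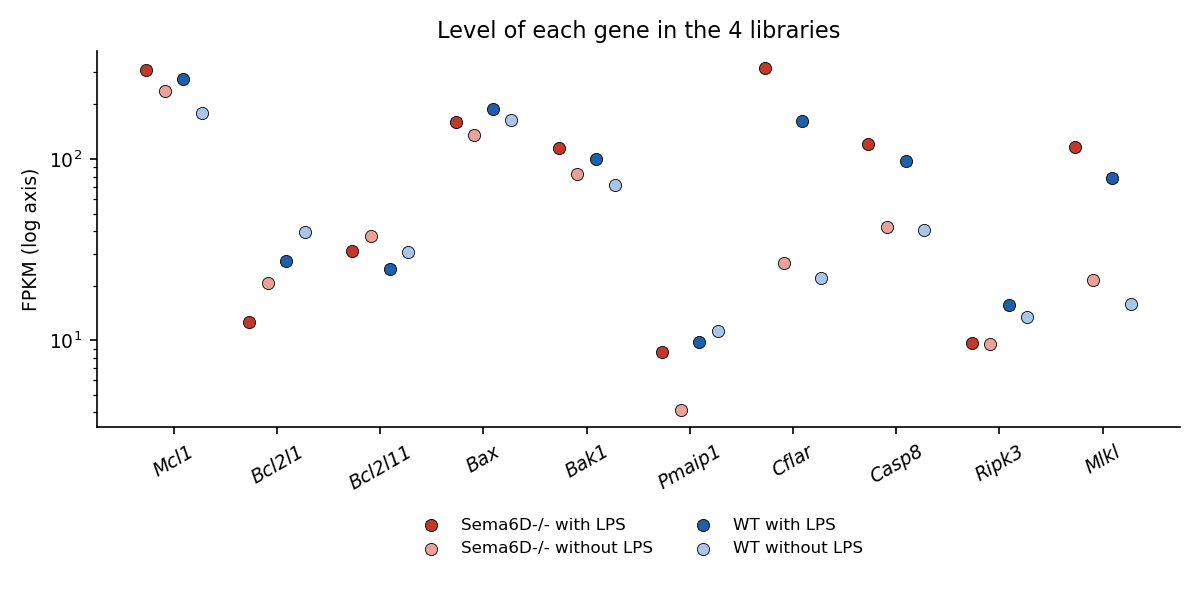
FPKM of the 10 genes on a log axis, 1 point per library, with the libraries labelled Sema6D-/- in red and the WT libraries in blue, and with LPS in the dark shade. The dark points stand far above the light ones for Cflar, Casp8 and Mlkl, and the highest level of all is Cflar at 318 FPKM in the library labelled Sema6D-/- with LPS.

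RefSeq promoter windows reach 250 bases before and 50 bases after an annotated start. For 9 of the 10 genes they were searched, in 12 windows of the build GRCm38.p6. Pmaip1 is named only, and no window of that gene was searched. The windows of Cflar, Casp8 and Mlkl are printed because these 3 genes were at least 2-fold higher after LPS in both genotypes, and those of Ripk3 and Bcl2l1 because they hold a motif that was searched for. Each is written along its gene's strand, with the matched letters in capitals. The Cflar window is chr1:58711241-58711540 (plus strand), that of Casp8 chr1:58802252-58802551 (plus), that of Mlkl chr8:111338156-111338455 (minus), that of Ripk3 chr14:55788808-55789107 (minus) and that of Bcl2l1 chr2:152830668-152830967 (minus), 1 of 3 windows of that gene.
Cflar: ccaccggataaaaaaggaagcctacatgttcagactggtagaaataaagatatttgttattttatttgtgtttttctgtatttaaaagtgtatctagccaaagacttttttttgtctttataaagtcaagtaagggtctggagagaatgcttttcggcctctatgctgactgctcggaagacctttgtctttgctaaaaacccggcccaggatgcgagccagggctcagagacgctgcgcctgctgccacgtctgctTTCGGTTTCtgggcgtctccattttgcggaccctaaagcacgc
Casp8: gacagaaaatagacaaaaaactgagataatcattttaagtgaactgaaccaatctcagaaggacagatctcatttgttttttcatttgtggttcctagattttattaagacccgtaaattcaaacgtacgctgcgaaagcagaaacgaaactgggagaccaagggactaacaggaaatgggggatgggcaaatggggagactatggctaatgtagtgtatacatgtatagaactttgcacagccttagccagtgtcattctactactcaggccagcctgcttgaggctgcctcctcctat
Mlkl: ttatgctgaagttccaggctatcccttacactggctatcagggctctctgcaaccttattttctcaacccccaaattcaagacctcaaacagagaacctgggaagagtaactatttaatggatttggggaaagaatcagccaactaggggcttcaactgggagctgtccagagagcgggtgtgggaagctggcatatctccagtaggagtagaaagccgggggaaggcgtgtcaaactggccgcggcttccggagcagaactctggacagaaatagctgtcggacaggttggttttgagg
Ripk3: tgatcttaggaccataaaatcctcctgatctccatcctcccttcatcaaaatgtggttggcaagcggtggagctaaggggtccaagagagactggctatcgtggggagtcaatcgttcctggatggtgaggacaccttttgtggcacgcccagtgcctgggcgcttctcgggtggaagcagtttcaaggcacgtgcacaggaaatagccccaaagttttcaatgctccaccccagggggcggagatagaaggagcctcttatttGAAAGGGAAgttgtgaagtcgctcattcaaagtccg
Bcl2l1: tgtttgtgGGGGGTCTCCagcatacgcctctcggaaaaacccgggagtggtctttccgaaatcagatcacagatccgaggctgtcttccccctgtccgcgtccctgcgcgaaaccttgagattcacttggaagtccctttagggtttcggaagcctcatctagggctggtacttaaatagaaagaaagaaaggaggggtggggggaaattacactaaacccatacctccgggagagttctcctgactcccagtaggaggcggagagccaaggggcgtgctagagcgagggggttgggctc

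The motifs were searched on both strands and were the interferon-stimulated response element (ISRE) core GAAANNGAA, the gamma-activated site (GAS) TTCNNNGAA and the kappa-B consensus. The capitals in the Cflar window are an ISRE core on the opposite strand, at bases 8 to 16 of the transcribed part, counting the start as 1. The capitals in the Ripk3 window are an ISRE core on the gene's own strand, at bases 15 to 23. The capitals in the Bcl2l1 window are a kappa-B match, at bases -242 to -233 before the start. Of the 12 windows, 2 held an ISRE core, 1 a kappa-B match and 0 a GAS match. Among all 32851 RefSeq promoter windows, 8.56% held an ISRE core, 4.51% a kappa-B match and 8.30% a GAS match. The windows of Casp8 and Mlkl held none of these letters, which says nothing of what binds there. Cflar and Casp8 lie near each other on chromosome 1, with 1 annotated long non-coding RNA gene between them.

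Among the survival genes, Mcl1 encodes a short-lived protein that many blood cells depend on. Mcl1 measured 311 FPKM with LPS and 237 FPKM without LPS in the libraries labelled Sema6D-/-, and 277 and 179.6 FPKM in WT. It was the highest of the 10 genes in every library but the one labelled Sema6D-/- with LPS, where Cflar was higher, and it exceeded 96.8 to 98.2% of the measured genes. With LPS over without, the fold was 1.32 (1.29 to 1.34) in the libraries labelled Sema6D-/- and 1.54 (1.51 to 1.58) in WT. The library labelled Sema6D-/- was 1.12 times (1.10 to 1.15) as high as WT with LPS and 1.32 times (1.29 to 1.35) without LPS. These folds stayed under 2, and the direction of 2 of them depends on scaling. With the libraries rescaled to a common total of FPKM, the log2 LPS ratio of Mcl1 in the libraries labelled Sema6D-/- was -0.36 and its genotype ratio with LPS was -0.06. Centred on the median they kept the deposited direction, at 0.23 and 0.13, and with the trimmed mean they were 0.23 and 0.12.

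Bcl2l1 encodes BCL-XL, a survival protein of the mitochondrial membrane. Bcl2l1 measured 12.6 FPKM with LPS and 20.8 FPKM without LPS in the libraries labelled Sema6D-/-, against 27.3 and 39.5 FPKM in WT. Both libraries labelled Sema6D-/- stood below both WT libraries, and within each genotype the LPS library was the lower one. The genotype fold was 0.463 (0.416 to 0.514) with LPS and 0.527 (0.491 to 0.566) without LPS. On the log2 scale with the added 1 these are -1.05 and -0.89, so the count of 2-fold differences separates values that lie close to each other. Its LPS fold was 0.608 (0.545 to 0.676) in the libraries labelled Sema6D-/- and 0.692 (0.647 to 0.739) in WT. Under the common total its log2 LPS ratios were -1.38 in the libraries labelled Sema6D-/- and -1.03 in WT. Bcl2l1 overlaps Cox4i2 on the reference, whose level was at most 0.0945 FPKM.

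The other survival genes of the family were dominated by Bcl2a1, an NF-kB target in mouse and human cells with several near-identical copies in the mouse, so the split between copies is uncertain. The 3 Bcl2a1 copies together measured 337 FPKM with LPS and 18.1 FPKM without LPS in the libraries labelled Sema6D-/-, and 171 and 13.3 FPKM in WT. Of the 6 other survival genes listed, 5 were measured in each LPS comparison. After LPS 3 were at least 2-fold higher in either genotype, all of them Bcl2a1 copies. Over all measured genes the shares were 14% in the libraries labelled Sema6D-/- and 10.7% in WT. The copy with most of the signal, Bcl2a1b, was 18.6-fold (16.2 to 21.4) as high with LPS in the libraries labelled Sema6D-/- and 13-fold (11.4 to 15) in WT. Bcl2l2 stayed between 8.91 and 13.5 FPKM, Bcl2 between 0.776 and 1.78 FPKM, and Bcl2l10 was listed at 0 in all 4 libraries. The makeup of the survival mRNA therefore differed between states. Mcl1 made up 46.1% of the summed FPKM of 8 survival genes with LPS and 82.6% without LPS in the libraries labelled Sema6D-/-, and 57.1% and 73.9% in WT. The Bcl2a1 copies made up 49.8% with LPS and 6.30% without LPS in the libraries labelled Sema6D-/-, and 35.3% and 5.48% in WT. Bcl2l1 made up 1.87% and 7.27% in the libraries labelled Sema6D-/-, against 5.62% and 16.2% in WT.

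No fold of the effectors reached 2. Bax measured 159 FPKM with LPS and 135 FPKM without LPS in the libraries labelled Sema6D-/-, and 189 and 164 FPKM in WT. Bak1 measured 116 and 82.8 FPKM in the libraries labelled Sema6D-/-, and 99.4 and 72.1 FPKM in WT. The LPS fold of Bax was 1.18 (1.10 to 1.26) in the libraries labelled Sema6D-/- and 1.15 (1.09 to 1.21) in WT, and that of Bak1 was 1.40 (1.34 to 1.46) in the libraries labelled Sema6D-/- and 1.38 (1.32 to 1.44) in WT. Between genotypes the effectors lay on opposite sides of 1. Bax in the libraries labelled Sema6D-/- was 0.842 times (0.792 to 0.896) the WT level with LPS and 0.821 times (0.776 to 0.868) without LPS, while Bak1 was 1.16 times (1.11 to 1.21) and 1.15 times (1.10 to 1.20). The LPS direction of both genes turned under the common total, where the log2 ratios were -0.52 for Bax and -0.27 for Bak1 in the libraries labelled Sema6D-/- and -0.33 and -0.07 in WT. The genotype ratio of Bak1 with LPS was then -0.01. Centred on the median these ratios kept the deposited direction. The log2 LPS ratios were then 0.08 for Bax in both genotypes, and for Bak1 0.32 in the libraries labelled Sema6D-/- and 0.34 in WT. The genotype ratio of Bak1 with LPS was 0.18. The differences of the log2 LPS responses, libraries labelled Sema6D-/- minus WT, were 0.04 for Bax and 0.02 for Bak1 as deposited, and -0.19 and -0.21 under the common total.

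Of the BH3-only genes, Bcl2l11 encodes BIM, which binds all survival proteins and has a known part in the death of leukocytes. Bcl2l11 measured 30.9 FPKM with LPS and 37.8 FPKM without LPS in the libraries labelled Sema6D-/-, and 24.7 and 30.7 FPKM in WT. The LPS library was the lower one in both genotypes, at 0.817 times (0.773 to 0.864) in the libraries labelled Sema6D-/- and 0.805 times (0.763 to 0.849) in WT. The library labelled Sema6D-/- was 1.25 times (1.18 to 1.33) as high as WT with LPS and 1.23 times (1.18 to 1.29) without LPS. The difference of the log2 LPS responses, libraries labelled Sema6D-/- minus WT, was 0.02, with an interval of -0.09 to 0.13 on the plain scale. With a common total it was -0.20. The gene overlaps Acoxl, which reached 0.986 FPKM at most, and whether counting used strand is not given in the sources used here.

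Pmaip1 encodes NOXA, a BH3-only protein that binds MCL1 and is a known p53 target. Pmaip1 was the lowest of the 10 genes in every library, at 8.63 FPKM with LPS and 4.11 FPKM without LPS in the libraries labelled Sema6D-/-, against 9.74 and 11.3 FPKM in WT. These values rest on 361, 233, 496 and 877 estimated fragments in the same order. The library labelled Sema6D-/- without LPS stood apart below the other 3. The genotype fold was 0.365 (0.315 to 0.423) without LPS and 0.886 (0.772 to 1.02) with LPS, where the interval includes 1. The LPS fold was 2.10 (1.78 to 2.49) in the libraries labelled Sema6D-/- and 0.866 (0.774 to 0.967) in WT. With the added 1, the log2 LPS ratio in the libraries labelled Sema6D-/- was 0.91, under the 2-fold line. Pmaip1 was the 1 member of 10 whose LPS responses were at least 2-fold apart, with a log2 difference, libraries labelled Sema6D-/- minus WT, of 1.10. That difference was at least 2-fold higher in 1.83% and at least 2-fold lower in 1.25% of 10680 measured genes. Under the common total the difference for Pmaip1 was 0.94, and the LPS ratio in the libraries labelled Sema6D-/- was 0.27.

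Cflar and Casp8 were the checkpoint genes, and Cflar had the largest LPS folds of the 10. Cflar measured 318 FPKM with LPS and 26.7 FPKM without LPS in the libraries labelled Sema6D-/-, and 162 and 22.0 FPKM in WT. The LPS fold was 11.9 (11.5 to 12.3) in the libraries labelled Sema6D-/- and 7.36 (7.12 to 7.61) in WT. The share of measured genes below Cflar was 96.9% with LPS and 76.4% without LPS in the libraries labelled Sema6D-/-, and 94.5% and 72.2% in WT. The library labelled Sema6D-/- was 1.96 times (1.93 to 1.99) as high as WT with LPS and 1.21 times (1.16 to 1.26) without LPS. On the log2 scale with the added 1 the genotype ratio with LPS was 0.97, just under the 2-fold line that Bcl2l1 passed on the other side. The difference of the log2 LPS responses, libraries labelled Sema6D-/- minus WT, was 0.70, with an interval of 0.63 to 0.77 on the plain scale, and 0.48 under the common total.

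Casp8 measured 122 FPKM with LPS and 42.4 FPKM without LPS in the libraries labelled Sema6D-/-, and 97.2 and 40.3 FPKM in WT. Both LPS libraries stood above both libraries without LPS. Its LPS fold was 2.87 (2.72 to 3.04) in the libraries labelled Sema6D-/- and 2.41 (2.29 to 2.54) in WT. The log2 ratios with the added 1 were 1.5 in the libraries labelled Sema6D-/- and 1.25 in WT as deposited, and 0.76 and 0.73 in the same order under the common total, where Casp8 was no longer 2-fold higher. Without LPS the genotypes differed by less than the counting error, with a fold of 1.05 (0.988 to 1.12), and with LPS the fold was 1.25 (1.20 to 1.31).

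The necroptosis genes behaved differently from each other. Ripk3 measured 9.64 FPKM with LPS and 9.60 FPKM without LPS in the libraries labelled Sema6D-/-, against 15.7 and 13.5 FPKM in WT. The LPS fold was 1.01 (0.857 to 1.18) in the libraries labelled Sema6D-/-, where the interval includes 1, and 1.17 (1.04 to 1.31) in WT. Both libraries labelled Sema6D-/- stood below both WT libraries, with a genotype fold of 0.613 (0.529 to 0.713) with LPS and 0.713 (0.625 to 0.810) without LPS. The LPS direction depends on scaling, with log2 ratios of -0.67 in the libraries labelled Sema6D-/- and -0.29 in WT under the common total. Centred on the median they were -0.14 and 0.10 in the same order.

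Mlkl encodes the executor that RIPK3 phosphorylates. Mlkl measured 117 FPKM with LPS and 21.5 FPKM without LPS in the libraries labelled Sema6D-/-, and 78.1 and 15.9 FPKM in WT. For Mlkl the LPS fold was 5.44 (5.04 to 5.87) in the libraries labelled Sema6D-/- and 4.92 (4.56 to 5.32) in WT. The library labelled Sema6D-/- was 1.5 times (1.42 to 1.57) as high as WT with LPS and 1.35 times (1.23 to 1.49) without LPS. The difference of the log2 LPS responses was 0.16, and its plain value of 0.14 had an interval of -0.01 to 0.30. The difference was -0.07 under the common total.

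**Figure D2:**
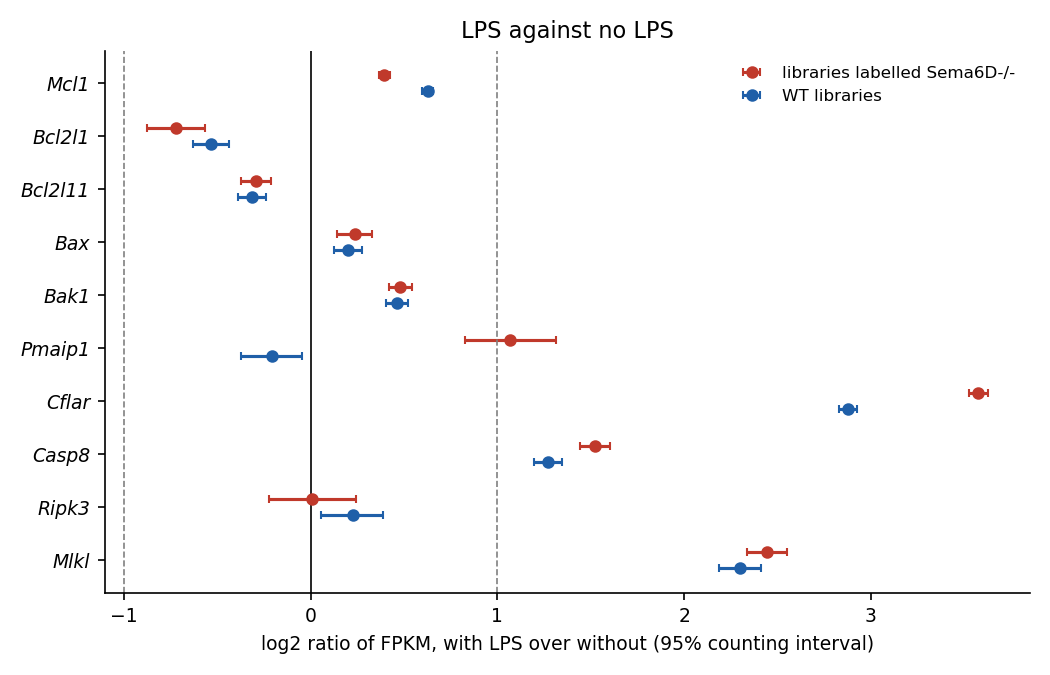
Plain log2 ratio of FPKM with LPS over without LPS for each gene, in the libraries labelled Sema6D-/- (red) and WT (blue), with bars for the 95% counting interval and dashed lines at a 2-fold difference. Cflar lies farthest right at 3.58 in the libraries labelled Sema6D-/- and 2.88 in WT, and Pmaip1 lies at 1.07 and -0.21, on opposite sides of 0.

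**Figure D3:**
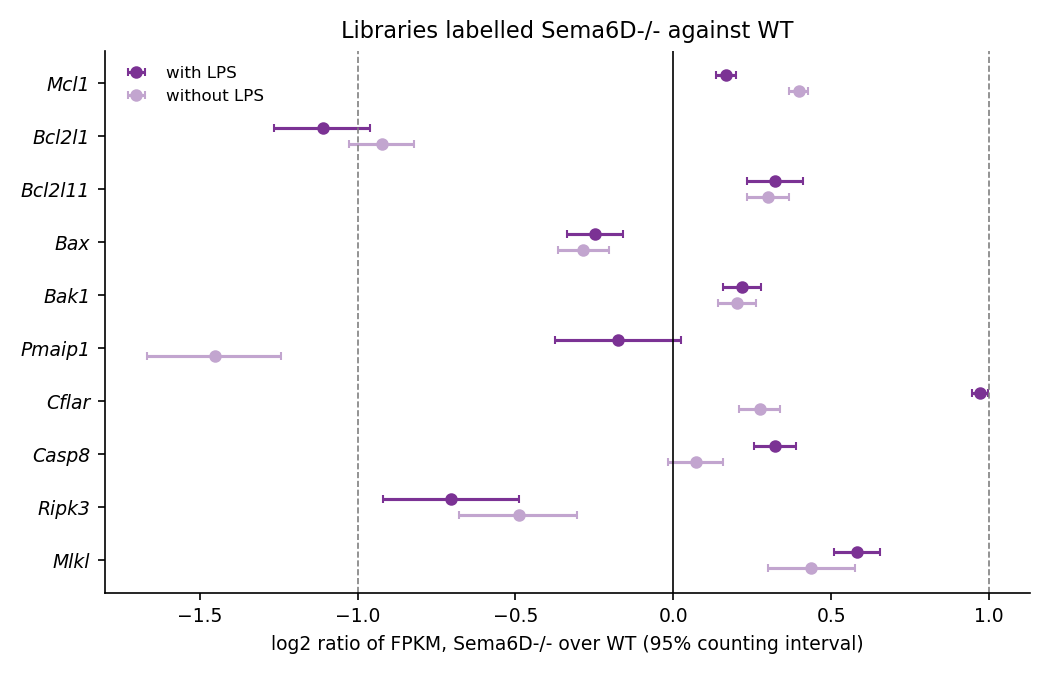
Plain log2 ratio of FPKM in the library labelled Sema6D-/- over WT, with LPS (dark) and without LPS (light), with bars for the 95% counting interval and dashed lines at a 2-fold difference. Bcl2l1 lies at -1.11 with LPS and -0.92 without LPS, Pmaip1 at -0.17 and -1.45, and Cflar at 0.97 and 0.27.

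Ratios between genes within a library do not depend on scaling between libraries. Cflar over Casp8, the 2 partners of the checkpoint, was 2.61 (2.53 to 2.70) with LPS and 0.629 (0.595 to 0.666) without LPS in the libraries labelled Sema6D-/-, and 1.67 (1.61 to 1.73) and 0.547 (0.520 to 0.575) in WT. Cflar mRNA was thus above Casp8 mRNA in both LPS libraries and below it in both libraries without LPS. Mlkl over Ripk3 was 12.1 (10.7 to 13.7) and 2.24 (1.98 to 2.54) in the libraries labelled Sema6D-/-, and 4.96 (4.53 to 5.46) and 1.18 (1.07 to 1.30) in WT. Mlkl exceeded Ripk3 in all 4 libraries, most with LPS and, in each state, more in the library labelled Sema6D-/-.

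Among the BCL2 genes, Mcl1 over the sum of Bax and Bak1 was 1.13 (1.10 to 1.17) with LPS and 1.09 (1.05 to 1.12) without LPS in the libraries labelled Sema6D-/-, and 0.962 (0.936 to 0.989) and 0.759 (0.740 to 0.780) in WT. The ratio was above 1 in both libraries labelled Sema6D-/- and below 1 in both WT libraries. Where a ratio between genes stands against 1 rests on the transcript lengths behind FPKM, and the counting intervals cover no error in those. The Bax transcript is short, at 867 bases beside 3418 for Mcl1. Bcl2l1 over Mcl1 was 0.0406 (0.0370 to 0.0444) and 0.0879 (0.0826 to 0.0935) in the libraries labelled Sema6D-/-, and 0.0985 (0.0930 to 0.104) and 0.220 (0.211 to 0.229) in WT. Bcl2l11 over Mcl1 was 0.0992 (0.0946 to 0.104) with LPS and 0.160 (0.154 to 0.166) without LPS in the libraries labelled Sema6D-/-, and 0.0891 (0.0851 to 0.0932) and 0.171 (0.165 to 0.177) in WT, so it was lower with LPS in both genotypes. These are ratios of mRNA, and protein was not measured.

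**Figure D4:**
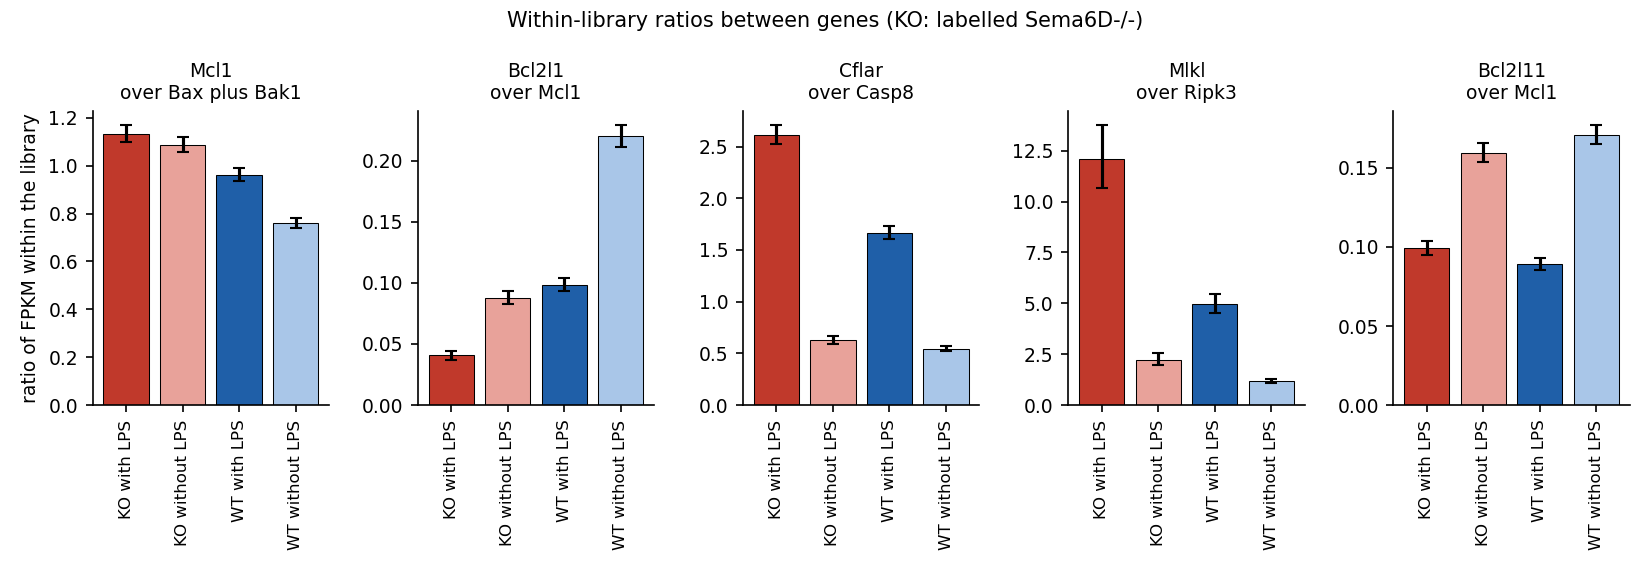
Bars give the ratio of FPKM between named genes within each library, with the libraries labelled Sema6D-/- (KO) left of WT and each axis starting at 0; error bars are 95% counting intervals. Cflar over Casp8 is above 1 only in the LPS libraries, at 2.61 and 1.67, and Mcl1 over Bax plus Bak1 is above 1 only in the libraries labelled Sema6D-/-, at 1.13 and 1.09.

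The deposited values are per RefSeq transcript, and the assignment of fragments to variants is an estimate by the software. Mcl1, Bax, Bak1 and Pmaip1 have 1 transcript each. For Cflar, NM_001293805 held 98.0% of the gene's FPKM with LPS and 94.5% without LPS in the libraries labelled Sema6D-/-, and 97.4% and 92.2% in WT, so nearly all of the LPS difference was assigned to 1 variant. Variant shares of Mlkl and Ripk3 differed widely between libraries. Mlkl NM_001310613 held 43.3% and 7.79% in the libraries labelled Sema6D-/-, and 5.40% and 26.1% in WT, so its share was higher with LPS in the libraries labelled Sema6D-/- and lower with LPS in WT. Ripk3 NM_019955 held 30.5% and 0.0276% in the libraries labelled Sema6D-/-, and 88.6% and 23.4% in WT, so its share was higher with LPS in both genotypes. The 2 Mlkl variants are 2003 and 1976 bases long, and the main Ripk3 variants 1865 and 1892 bases, so their lengths are close. Bcl2l11 NM_207681 was listed at 0 in WT with LPS, beside 8.62 FPKM in the library labelled Sema6D-/- with LPS, 11.4 FPKM in that without LPS and 6.77 FPKM in WT without LPS. With the transcript of highest mean level in place of the gene sum, the log2 LPS ratio of Ripk3 in WT was -2.20. The genotype ratio of Mlkl with LPS was then -0.16. The differences of LPS responses were 1.65 for Ripk3 and -0.87 for Mlkl, beside -0.20 and 0.16 for the gene sums. Gene sums were set beforehand and are used throughout, and they do not show these turns.

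For the 5 genes that spanned 2-fold or more over the 4 libraries, the genes with the nearest pattern were sought among 7799 protein-coding genes, by the Euclidean distance of log2(FPKM + 1) after centring over the 4 libraries. Nearest to Cflar were Ikzf1 at 0.14, Jak2 at 0.17 and Pcgf5 at 0.23. Ikzf1 measured 307 FPKM with LPS and 29.5 FPKM without LPS in the libraries labelled Sema6D-/-, and 167 and 23.9 FPKM in WT, close to Cflar in level as well. Nearest to Mlkl were Lacc1 at 0.09, Sp110 at 0.11 and Pnpt1 at 0.12, and nearest to Casp8 were Rnf145, Stau1 and Synj1, at 0.06, 0.06 and 0.07. Nearest to Bcl2l1 were Por at 0.05, Lima1 at 0.09 and Tpm1 at 0.10. Nearest to Pmaip1 were Memo1 at 0.25, Rpl22l1 at 0.30 and Slc12a7 at 0.34, so no gene lay as near to Pmaip1 as to the other 4 at their nearest. Each distance rests on 4 values.

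Other genes of the pathways were grouped by role. Among the receptor complex and necroptosis regulators, 9 of 22 measured genes were at least 2-fold higher after LPS in the libraries labelled Sema6D-/-. In WT 7 of 22 were, and none was at least 2-fold lower in either genotype. Over all measured genes, 14% in the libraries labelled Sema6D-/- and 10.7% in WT were higher, and 8.81% and 4.85% lower. Under the common total 6 were higher and 2 lower in the libraries labelled Sema6D-/-, and 7 and 1 in WT. Over all measured genes 739 of 10398 were then higher and 2963 lower in the libraries labelled Sema6D-/-, and 713 and 1468 of 10375 in WT. The median log2 ratio of the list was 0.67 in the libraries labelled Sema6D-/- and 0.46 in WT. Under the common total it was -0.03 in the libraries labelled Sema6D-/- and -0.05 in WT. Over all measured genes the medians were 0.01 and -0.00106 as deposited, and -0.65 and -0.46 under the common total, in the same order. Tnfaip3, which encodes the ubiquitin-editing brake A20, measured 433 FPKM with LPS and 15.3 FPKM without LPS in the libraries labelled Sema6D-/-, and 162 and 10.3 FPKM in WT. Zbp1, the nucleic acid sensor that can recruit RIPK3, measured 729 and 194 FPKM in the libraries labelled Sema6D-/-, and 505 and 116 FPKM in WT. Both followed the direction of Cflar and Mlkl. Birc3, which encodes the ubiquitin ligase cIAP2, was at least 2-fold higher in the library labelled Sema6D-/- in both states, with log2 ratios of 1.07 with LPS and 1.25 without LPS. Its ratio with LPS was 0.84 under the common total. The log2 LPS ratios of Rnf31, a subunit of the linear ubiquitin ligase, were 2.21 in the libraries labelled Sema6D-/- and 2.19 in WT, and those of Mapkapk2, a kinase downstream of p38, were 2.10 in the libraries labelled Sema6D-/- and 2.02 in WT. Ripk1, the partner kinase of RIPK3, is named here after its values were seen. Ripk1 measured 40.2 FPKM with LPS and 22.1 FPKM without LPS in the libraries labelled Sema6D-/-, and 42.9 and 34.8 FPKM in WT, with a log2 genotype ratio of -0.63 without LPS, the lowest of the 22.

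Among 11 measured apoptosome and executioner genes, 3 were at least 2-fold higher after LPS in either genotype, and 2 were at least 2-fold lower in the libraries labelled Sema6D-/- and 0 in WT. Under the common total 3 were again higher in either genotype, and 5 in the libraries labelled Sema6D-/- and 1 in WT were lower. As deposited 14% and 10.7% of all measured genes were higher and 8.81% and 4.85% lower, libraries labelled Sema6D-/- first. Under the common total 739 of 10398 and 713 of 10375 were higher, and 2963 and 1468 lower. Apaf1, which encodes the scaffold of the apoptosome, measured 49.8 FPKM with LPS and 11.4 FPKM without LPS in the libraries labelled Sema6D-/-, and 35.4 and 9.29 FPKM in WT. Endog, which encodes a mitochondrial nuclease, is named after its values were seen and was the other gene besides Casp9 at least 2-fold lower. Endog was at 1.16 FPKM with LPS and 4.57 FPKM without LPS in the libraries labelled Sema6D-/-, and 1.46 and 2.79 FPKM in WT. Casp9, the initiator caspase of the apoptosome, was at 3.69 and 13.1 FPKM in the libraries labelled Sema6D-/-, and 6.21 and 12.5 FPKM in WT. Both genes were thus lower with LPS in WT as well. The log2 LPS ratio of Casp9 in WT was -0.91, just short of the 2-fold line, and its plain fold was 0.496. With the median or the trimmed mean, 1 listed gene was at least 2-fold lower in WT, beside 623 or 630 of 10375 measured genes.

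Of 8 measured other effectors and BH3-only genes, 0 were at least 2-fold higher and 1 was at least 2-fold lower with LPS in either genotype. Under the common total 4 were lower in the libraries labelled Sema6D-/- and 1 in WT. Of all measured genes, 8.81% and 4.85% were lower as deposited, in the same order. The common total made that 2963 of 10398 and 1468 of 10375. The listed gene that was lower as deposited was Bmf, a BH3-only gene. Bmf measured 0.124 FPKM with LPS and 8.56 FPKM without LPS in the libraries labelled Sema6D-/-, and 0.295 and 6.57 FPKM in WT. The LPS fold of Bmf was 0.0145 (0.00538 to 0.0321) in the libraries labelled Sema6D-/- and 0.0449 (0.0259 to 0.0719) in WT. None of the 10 genes differed with LPS by as much in that direction, where the lowest was Bcl2l1.

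Of 7 death receptor and ligand genes, 4 were measured in the libraries labelled Sema6D-/- and 5 in WT. In either genotype 4 were at least 2-fold higher after LPS, beside 14% and 10.7% of all measured genes in the same order. These were Tnf, Tnfsf10 (the ligand TRAIL), Fas and Tnfrsf1b, which encodes TNF receptor 2 and whose log2 ratios under the common total were 0.56 in the libraries labelled Sema6D-/- and 0.99 in WT. Tnf measured 1794 FPKM with LPS and 54.2 FPKM without LPS in the libraries labelled Sema6D-/-, and 357 and 31.5 FPKM in WT. Its log2 genotype ratio with LPS was 2.33, and the difference of its LPS responses was 1.56. Tnfsf10 measured 203 and 7.25 FPKM in the libraries labelled Sema6D-/-, and 109 and 1.47 FPKM in WT, and Fas measured 123 and 28.3 FPKM in the libraries labelled Sema6D-/-, and 114 and 15.0 FPKM in WT. For both, the difference of the log2 LPS responses had the other sign than that of Tnf, at -0.84 and -0.76.

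**Figure D5:**
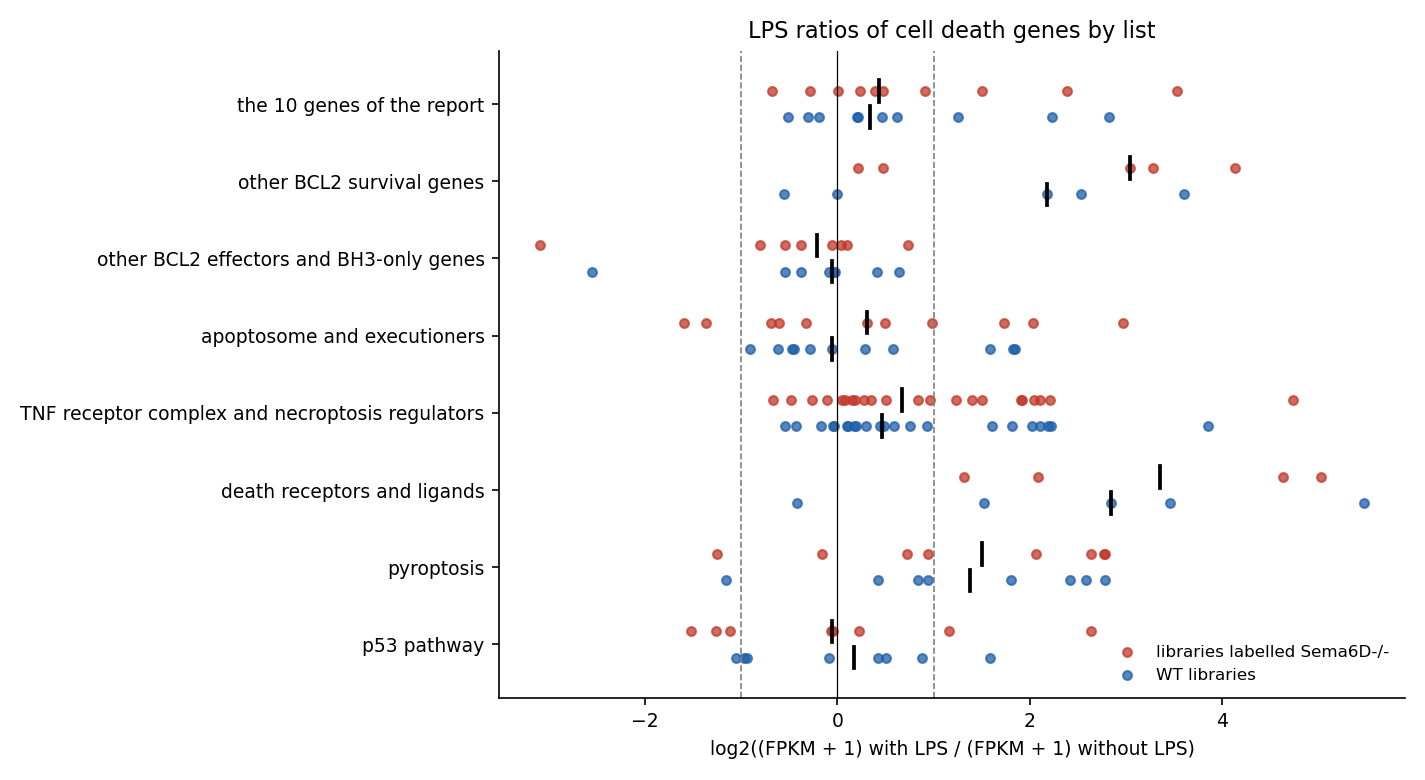
Log2((FPKM + 1)/(FPKM + 1)) with LPS over without LPS for every measured gene of 7 lists of cell death genes and of the 10 genes described here, in the libraries labelled Sema6D-/- (red) and WT (blue), with black bars at the medians and dashed lines at a 2-fold difference. The death receptor and ligand list has the highest medians, 3.36 over 4 genes in the libraries labelled Sema6D-/- and 2.84 over 5 in WT. These medians cover unlike sets, because Tnfrsf10b, at -0.42, was measured only in the WT comparison. The lowest single point is Bmf at -3.09 in the libraries labelled Sema6D-/-.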

How the data were processed

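The deposited values were FPKM per RefSeq transcript, made by the authors from stranded mRNA libraries, 1 table of 34487 transcripts per library. Cuffnorm 2.2.1, SAMtools 0.1.19, TopHat2 2.0.13, Bowtie2 2.2.3 and the build mm9 are named, in no order, per the submitters' processing notes. Their order and options, the annotation version, the use of strand in counting and the scaling between libraries are not given in the sources used here.

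Transcripts were named with the GRCm38 RefSeq table (34163) or GENCODE vM21 (187), 137 were left out, and FPKM were summed to 24235 genes, 5540 of them with several transcripts. Log2 ratios used FPKM with 1 added, which understates ratios of low genes, for genes at 1 FPKM or more in either library (in any of the 4 for the difference of LPS responses), with a size rule of 2-fold. Estimated fragments came from the smallest FPKM values, which move in steps. Multiplied by effective length they lay within 0.1 of a whole multiple of 1 step for 72.3 to 73.6% of low values. By chance 20% would do so for a step fixed beforehand. The step was fitted to these same low values, so the 20% is not a fair comparison. Counting intervals rest on these fragments, on GENCODE lengths and on the deposited scaling. Those of the differences of responses also rest on a normal approximation to log counts. The 2-fold rule, the step fit and the exact interval were run on simple simulated counts. The intervals of the differences were not. Promoter windows are RefSeq's, on GRCm38.p6, and no coordinates were carried between builds.

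With 1 library per group no test across libraries was possible. Alternatives were an added value of 0.1 or 0, no filter or one of 5 FPKM, a common total, centring on the median, a trimmed mean (30% cut at each end), the transcript of highest mean level, and a 1.5-fold size rule. The 10 genes, the 7 lists of other pathway genes and the markers were chosen with earlier results of these data known. All 10 were named whatever their values, and of each list up to 5 genes at 5 FPKM or more and at least 2-fold apart in any comparison, by largest log2 ratio. Some genes that this rule names are not reported here. Python 3.11.15, pandas 2.3.3, NumPy 2.4.6, SciPy 1.17.1 and matplotlib 3.10.9 were used.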

Additional observations from a re-analysis of the deposited data

Results flagged for a closer look

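The LPS response of Pmaip1 had opposite signs in the genotypes, with a log2 ratio of 0.91 in the libraries labelled Sema6D-/- and -0.19 in WT, a difference of 1.10. Each response is a single pair of libraries, so this difference was not tested. The response in the libraries labelled Sema6D-/- rests on the low level without LPS, 4.11 FPKM, against 8.63 to 11.3 FPKM in the other 3 libraries.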

How the results depend on the processing

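The numbers of the 10 genes at least 2-fold apart were the same without a filter, with a filter of 5 FPKM, with the median and with the trimmed mean. With an added value of 0.1 or 0, the number higher with LPS in the libraries labelled Sema6D-/- was 4 in place of 3, through Pmaip1. With 0.1 the share of all measured genes was 15.6%, beside 14% as reported. With a common total, 2 genes were lower with LPS in the libraries labelled Sema6D-/- and 1 in WT. Then 0 had LPS responses at least 2-fold higher in the libraries labelled Sema6D-/-. Over all measured genes these were 2963 of 10398, 1468 of 10375 and 122 of 10680. With the transcript of highest mean level, 1 gene was lower with LPS in WT, and 2 had higher LPS responses in the libraries labelled Sema6D-/-. Against WT, 1 was higher and 0 lower in the library labelled Sema6D-/- with LPS, and 2 were lower in that without LPS. Shares over all measured genes under the transcript setting are not given here. With a 1.5-fold rule, 4 genes were higher and 1 lower with LPS in the libraries labelled Sema6D-/- (22% and 20.1% of all measured genes), and 4 higher and 0 lower in WT (17.3% and 13.9%). Against WT, the library labelled Sema6D-/- had 1 higher and 2 lower genes with LPS (10% and 7.91%) and 0 higher and 2 lower genes without LPS (6.96% and 5.82%), and the LPS response was higher for 2 and lower for 0 (5.57% and 5.71%). A ratio of a single gene was said to move when it shifted by more than the distance from the middle of its counting interval to an end. Of 50 such ratios, 36 moved with a common total and 17 with the median or the trimmed mean. Gene sums of Ripk3, Mlkl and Bcl2l11 hide variant estimates that turn the genotype ratio with LPS to 1.60, -0.16 and -0.29 on the log2 scale. No paired analysis was possible because each group holds 1 library, and for the same reason no library could be left out. Depth limits Pmaip1 and Ripk3 most, whose intervals were the widest.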

Other observations

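Pyroptosis is a further lytic death, triggered by inflammasomes. Of 8 measured pyroptosis genes, 4 were at least 2-fold higher and 1 at least 2-fold lower with LPS in either genotype. These counts were the same under a common total, and 0 were 2-fold apart between genotypes. Of all measured genes, 14% and 10.7% were higher and 8.81% and 4.85% lower as deposited, libraries labelled Sema6D-/- first. Under a common total 739 of 10398 and 713 of 10375 were higher, and 2963 and 1468 lower. The lower gene was Gsdme, which encodes a pore-forming gasdermin and is named after its values were seen, at 1.37 FPKM with LPS and 4.64 FPKM without LPS in the libraries labelled Sema6D-/-, and 1.46 and 4.47 FPKM in WT. Nlrp3, the sensor of the best known inflammasome, measured 254 FPKM with LPS and 36.2 FPKM without LPS in the libraries labelled Sema6D-/-, and 154 and 21.5 FPKM in WT. The log2 LPS ratios of Casp4, the mouse sensor of LPS in the cytosol, were 2.63 in the libraries labelled Sema6D-/- and 2.58 in WT, those of Aim2, a DNA sensor, were 2.77 in the libraries labelled Sema6D-/- and 2.42 in WT, and those of Casp1, the inflammasome caspase, were 2.07 in the libraries labelled Sema6D-/- and 1.81 in WT.

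Of 8 measured genes of the p53 pathway, which is known to induce Pmaip1, 2 were at least 2-fold higher and 3 at least 2-fold lower with LPS in the libraries labelled Sema6D-/-, and 1 and 1 in WT. Under a common total 1 was higher and 3 lower in either genotype. The shares over all measured genes are those given for the pyroptosis genes. The list had median log2 genotype ratios of -0.59 with LPS and -0.64 without LPS, beside 0.04 over all measured genes in either state. Of its 8 measured genes, 7 were below 0 in each state. Over all measured genes, 4518 of 10078 were below 0 with LPS and 4548 of 10322 without LPS. The gene above 0 was Cdkn1a with LPS, at 0.38, and Trp53 without LPS, at 0.43. Trp53 encodes p53 and is named after its values were seen. Only Phlda3, a p53 target that restrains AKT, was at least 2-fold lower in the library labelled Sema6D-/- in both states, at 0.714 FPKM with LPS and 3.92 FPKM without LPS, against 5.32 and 12.1 FPKM in WT. Under the common total 2 genes were at least 2-fold lower in the library labelled Sema6D-/- with LPS and 1 without LPS. Over all measured genes these were 409 of 10078 and 251 of 10322. Mdm2, which encodes the ligase that degrades p53, had log2 genotype ratios of -0.34 with LPS and -0.62 without LPS, and Zmat3, an RNA-binding p53 target, had -0.85 and -0.70. Cdkn1a, the cell cycle inhibitor p21, was 1186 FPKM with LPS and 190.3 FPKM without LPS in the libraries labelled Sema6D-/-, and 910.0 and 302 FPKM in WT. The difference of its log2 LPS responses was 1.04 as deposited and 0.82 under the common total. Sesn2, a stress-induced p53 target, had log2 LPS ratios of -1.26 in the libraries labelled Sema6D-/- and -0.94 in WT. These genotype ratios move with the sex-linked RNAs and neutrophil markers given above, whose part was not tested.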
